A study of Mus musculus with 24 samples.

Results

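The genes described here were 9 regulators of lacrimal gland (LG) development: Pax6, Sox9, Sox10, Barx2, Six2, Eya1, Foxc1, Runx1 and Msx2. They were chosen by name, and each was matched to its Ensembl identifier, so they made up 9 of the 52636 Ensembl genes of each table. All were annotated as protein-coding genes. In 3 of them (Pax6, Barx2 and Msx2) the mean level over the 20 passage 2 and tissue libraries reached 0.5 FPKM (fragments scaled to exon length and library size), the minimum set for a test. Eya1 and Runx1 were detected in some of those libraries with a mean under 0.5 FPKM. The remaining 4 genes, Sox9, Sox10, Six2 and Foxc1, were listed at 0 in all 20 libraries.

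The LG forms from the conjunctival epithelium, which buds into the periocular mesenchyme and then branches into ducts and tear-secreting acini. The mesenchyme secretes FGF10, and the epithelium receives it through the receptor Fgfr2. Pax6 makes the ocular surface epithelium competent to form the gland, and Sox9, Sox10 and Barx2 act within the growing bud. Foxc1, Six2, Eya1, Runx1 and Msx2 are known from the epithelium or mesenchyme of this and other branching or craniofacial organs. 8 of the 9 proteins bind DNA themselves, whereas Eya1 is a phosphatase that acts as a co-activator of Six2 and its relatives.

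RNA sequencing was performed on C57BL/6 mouse LGs and on lacrimal gland stem cell (LGSC) spheres. The tissue groups were LGs of the embryonic stages E17.5 and E19.5 and of adults, with 3 libraries each. The spheres were grown from LGs of C57BL/6 mice aged 6 to 8 weeks in Matrigel and a serum-free medium with EGF, FGF10, Wnt3A and the ROCK inhibitor Y-27632. They were sampled in passage 2 after 5 days (2 libraries) and after 7, 10 and 14 days (3 libraries each), and in passage 10 after 7 days (1 library). No group carried a genetic change in its label, and all spheres, whatever their day, received FGF10 and Wnt3A. The spheres are cells that grew in this medium and not whole glands, which limits their comparison with tissue. No label tied a replicate number to a mouse or a culture, so the p-values below describe the spread between these libraries, which may in part be technical.

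Some libraries stood apart, and the results that rest on them are given with that fact. The totals of reads that the deposited values implied ran from 6434711 to 9257981 over the 20 libraries, and the passage 10 library reached 25181779. In adult LG 1 and adult LG 2 these totals were 2.67 and 2.57 times the library scale built into the values, against 0.832 to 1.13 in the other 18 libraries. Their 10 leading genes made up 60.4% and 59.6% of all reads, against 31.3% in adult LG 3 and at most 8.07% elsewhere. Values of all 20 libraries were therefore also rescaled, each to its own recovered reads, which moved adult LG 1 and 2 the most. The values had gaps as well. Gapdh, Mki67 and the epithelial genes Epcam and Krt8 were listed at 0 in all 20 libraries, while Actb ranged from 114 to 624 FPKM. A listing at 0 was therefore not read as absence of expression. Whether genes with low values were undercounted too was not tested.

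The labelled tissues were checked against cell type markers. Cdh1, the epithelial cadherin, was present in every group, from 136 FPKM in adult LG to 663 FPKM in day 14 spheres. The summed level of 8 mesenchymal genes was 0.529 to 3.49 FPKM in the spheres, 171 to 345 FPKM in adult LG, 4907 to 5768 FPKM in E17.5 LG and 4886 to 5860 FPKM in E19.5 LG. Of the acinar markers, Bhlha15 and Lcn11 were listed at 0 in all 20 libraries, and the summed level of the 4 acinar genes was 1.46 to 7.12 FPKM in adult LG. In the passage 10 library it was 408 FPKM, nearly all of it the tear protein gene Ltf (407 FPKM). In whole tissue, fewer cells of a type and less RNA per cell cannot be told apart.

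Pax6, a paired-box and homeodomain protein that is required for eye and ocular surface development, spans chr2:105668900-105697364 on the plus strand of GRCm38, the build of all positions given here. It is transcribed from more than 1 start. The deposited value adds all of them, so a level cannot be assigned to a start. The downstream start lies inside the gene. The 250 bases before the 2 starts held in RefSeq (GRCm38.p6) are shown because any change in Pax6 below may come from either. The capitals mark the core of a SOX site (ACAAT, searched on both strands), since Sox4, Sox9 and Sox11 belong to that family.

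Pax6 upstream start, chr2:105668646-105668895, plus strand: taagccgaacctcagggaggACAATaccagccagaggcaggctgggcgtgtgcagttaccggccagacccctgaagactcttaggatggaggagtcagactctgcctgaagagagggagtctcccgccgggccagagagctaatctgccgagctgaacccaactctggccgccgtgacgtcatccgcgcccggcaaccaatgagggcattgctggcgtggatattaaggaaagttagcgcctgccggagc

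Pax6 downstream start, chr2:105682213-105682462, plus strand: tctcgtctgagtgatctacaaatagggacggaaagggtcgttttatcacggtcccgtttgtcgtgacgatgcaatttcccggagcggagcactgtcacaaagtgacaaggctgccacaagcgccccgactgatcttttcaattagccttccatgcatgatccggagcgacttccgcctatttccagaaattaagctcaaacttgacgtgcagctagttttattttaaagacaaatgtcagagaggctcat

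The upstream window was 60.8% G and C with 15 CpG dinucleotides, and the downstream window was 47.6% with 15, against medians of 52.4% and 6 over the 32817 RefSeq windows. The ACAAT core lay 230 bases before the upstream start, and 27.7% of all windows held it. None of the other motifs searched, TAATTA for homeodomain proteins, TGTGGT for RUNX and TGTTTA for forkhead proteins, occurred in either window. These are matches of letters, not binding sites.

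Pax6 was detected in every library. In adult LG the values were 11.9, 10.5 and 10.9 FPKM. They were 3.51, 4.29 and 4.07 FPKM in E17.5 LG and 4.88, 4.79 and 4.59 FPKM in E19.5 LG. Every adult library lay above every embryonic library, as deposited. Of all genes, 59.5% did not overlap between adult and E17.5 LG and 58.8% between adult and E19.5 LG. The means were 11.1 ± 0.721 FPKM in adult LG, 3.95 ± 0.403 FPKM in E17.5 LG and 4.75 ± 0.150 FPKM in E19.5 LG (SD, n = 3 each), so the adult mean was 2.81 and 2.34 times the embryonic means. Among protein-coding genes with at least 1 FPKM, Pax6 stood at the 61.4th percentile in adult LG, the 37.6th in E17.5 LG and the 39.7th in E19.5 LG. Genes listed at 0, such as Gapdh and Krt8, were missing from this ranking, which may shift the percentiles. On the log2(FPKM + 1) scale, which is used for all fold changes below, Pax6 was lower in E17.5 LG than in adult LG, with a log2 fold change of -1.29 (SE 0.123, limma with Benjamini-Hochberg adjustment, adjusted p = 4.948e-05). The difference for E19.5 LG was -1.07 (SE 0.123, adjusted p = 0.0001591). The adult libraries were shared by both comparisons.

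The Pax6 difference between adult and embryonic LG depended on how adult LG 1 and 2 were scaled. Rescaled to the recovered reads, the adult values became 4.47, 4.10 and 9.87 FPKM, and those of adult LG 1 and 2 lay among the embryonic values of 3.61 to 4.86 FPKM. The log2 fold changes were then -0.40 for E17.5 LG and -0.28 for E19.5 LG, neither of which passed (adjusted p = 0.2401 and 0.4247). This scaling also moved the median of all genes, by 0.58 for E17.5 LG and 0.50 for E19.5 LG, so that 81.5% and 81.4% of the genes called were higher in the embryonic gland, against 53.8% and 55.9% with the deposited values. Adult LG 3, whose scale resembled that of the other tissues, held 10.9 FPKM of Pax6 as deposited and 9.87 FPKM rescaled, above all 6 embryonic libraries on both scales. At each age the Pax6 call was kept in the other 15 of 16 alternatives. These included the voom form of limma on the recovered reads and leaving out each library.

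Between E17.5 and E19.5 the Pax6 values did not overlap, but the difference of 0.22 (95% interval -0.06 to 0.50) did not pass (adjusted p = 0.4686). Values of the 2 embryonic groups did not overlap in 35.1% of all genes tested, and 1.74% of genes were called, 1.11% higher and 0.624% lower.

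Barx2, a homeodomain protein of the Bar class that is expressed in budding epithelia, spans chr9:31846044-31913462 on the minus strand. In all 3 tissues it held the highest level of the 5 members with any value there. Its values were 55.6, 107 and 159 FPKM in adult LG, 214, 248 and 256 FPKM in E17.5 LG, and 211, 186 and 228 FPKM in E19.5 LG. All embryonic libraries lay above all adult libraries, and the adult libraries spread widely. The means were 107 ± 51.9, 239 ± 22.0 and 208 ± 21.3 FPKM, respectively (SD, n = 3 each). These levels placed Barx2 at the 92.4th percentile of expressed protein-coding genes in adult LG, the 97.4th in E17.5 LG and the 96.5th in E19.5 LG. Abundant genes missing from the ranking would raise these percentiles, and how many were missing was not tested.

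Barx2 was higher in E17.5 LG than in adult LG by 1.27 (SE 0.331, adjusted p = 0.01111), and in E19.5 LG by 1.07 (SE 0.331, adjusted p = 0.02415). The direction was kept after rescaling, where the adult values were 20.9, 41.8 and 144 FPKM and the differences 2.27 and 1.96 (adjusted p = 0.006757 and 0.0147). In adult LG 3 the level was 159 FPKM as deposited and 144 FPKM rescaled, below all 6 embryonic libraries on both scales. The E19.5 call was lost without E19.5 LG 1 (1.06, adjusted p = 0.06324) or E19.5 LG 3 (1.00, adjusted p = 0.07373). Both embryonic calls were lost when the spread was estimated over all 20 libraries (adjusted p = 0.1015 and 0.1674). E19.5 and E17.5 LG overlapped in Barx2, with a difference of -0.20 (95% interval -0.96 to 0.56, adjusted p = 0.8698).

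Pax6 and Barx2, the only members tested in tissue, therefore moved in opposite directions between adult and embryonic LG. The Pax6 calls were lost after rescaling and the Barx2 calls with the spread estimated over all 20 libraries, while voom kept those of both genes. Both were called as deposited at both ages, with 1 lower and 1 higher, while 54.0% of all 18578 genes tested were called for E17.5 LG (29.1% higher, 24.9% lower) and 54.2% for E19.5 LG (30.3% higher, 23.9% lower). Calls were thus common among all genes. The 8 mesenchymal markers moved with this comparison too, with 7 of 7 tested higher at both ages. Of the 2 epithelial markers tested, Krt18 was lower at E17.5 (-1.73, adjusted p = 0.000309), a call lost after rescaling and kept with voom, and differed by -0.11 at E19.5 (adjusted p = 0.6987). Cdh1 differed by 0.13 at E17.5 (adjusted p = 0.5031) and by 0.21 at E19.5 (adjusted p = 0.2897). The part of these cell types in the Barx2 difference was not tested.

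**Figure D1:**
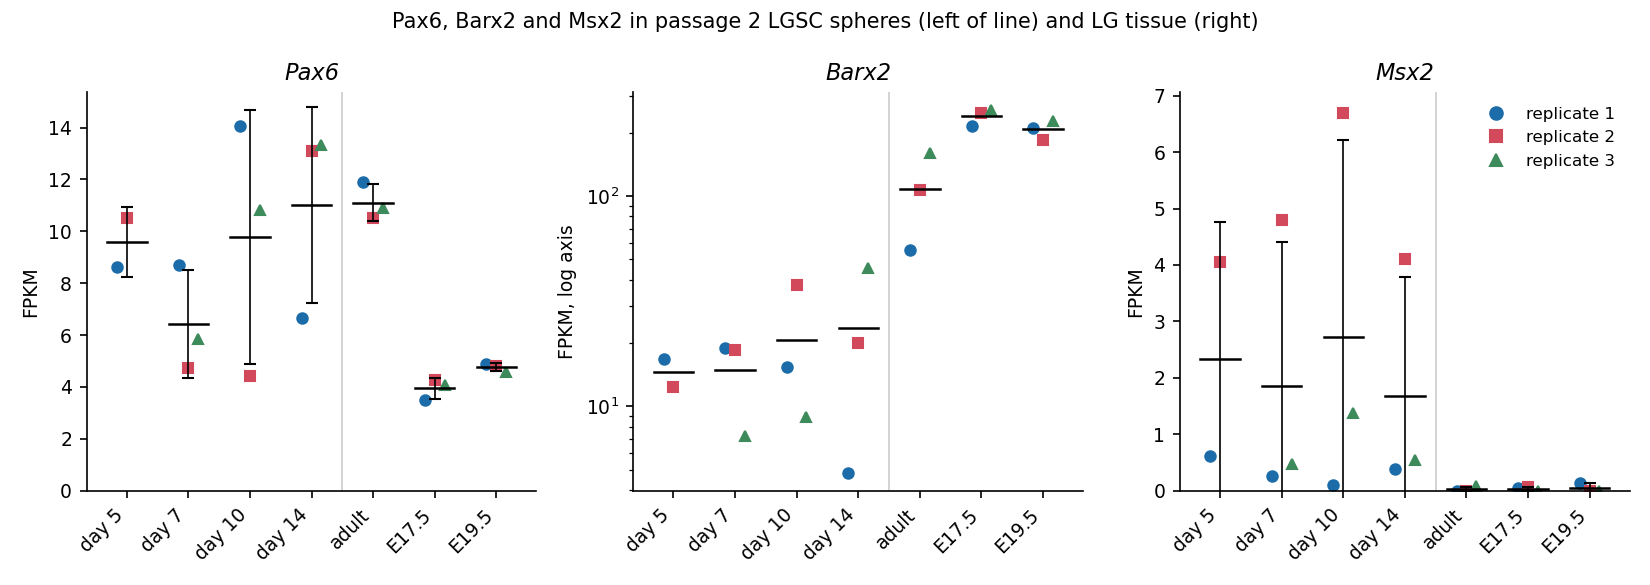
FPKM of Pax6, Barx2 (log axis) and Msx2 in each passage 2 LGSC and LG library, with the replicate number as colour and shape. Horizontal lines are group means and, for Pax6 and Msx2, vertical bars are 1 SD, cut at 0. As deposited, Pax6 was highest in adult LG among the tissues, Barx2 in E17.5 LG, and Msx2 reached 4.05 to 6.69 FPKM in the replicate 2 cultures alone.

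**Figure D2:**
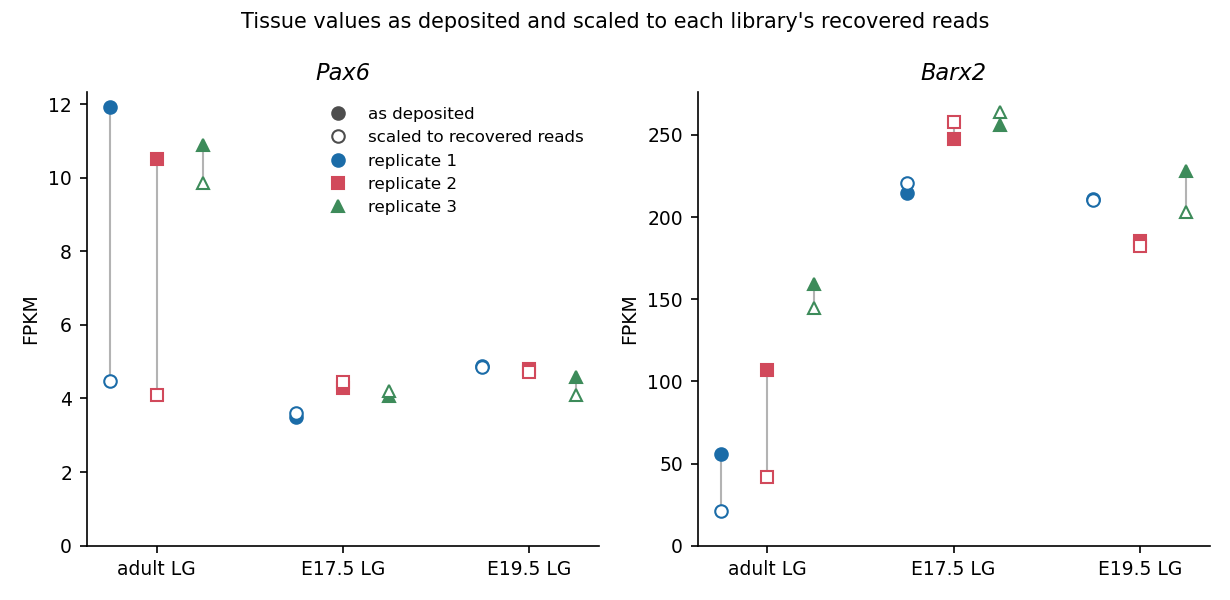
FPKM of Pax6 and Barx2 in the 9 LG libraries as deposited (filled) and rescaled to the recovered reads (open), with a grey line joining the values of 1 library. Adult LG 1 and 2 fell to 4.47 and 4.10 FPKM of Pax6, while the embryonic libraries hardly moved.

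Eya1, on the minus strand at chr1:14168954-14310235, was present at trace levels in tissue. The values were 0.159, 0.162 and 0.185 FPKM in adult LG, from 3, 4 and 11 reads. They were 0.263, 0.226 and 0.112 FPKM in E17.5 LG, from 16, 17 and 7 reads, and 0.293, 0.114 and 0.196 FPKM in E19.5 LG, from 20, 8 and 12 reads. The 3 tissue groups overlapped. In the 11 passage 2 sphere libraries the values were 0 to 0.0429 FPKM, from at most 3 reads, and 2 of these libraries were at 0. Each tissue library exceeded each sphere library. A count of 3 reads was worth 0.0399 to 0.159 FPKM of Eya1, depending on the library, so the sphere values were at the limit of detection.

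With no filter on low values, Eya1 was called lower in day 7 spheres than in adult LG (-0.20, adjusted p = 0.0393) and than in E17.5 LG (-0.23, adjusted p = 0.03418). Against adult LG, 9.72% of all genes (3450 of 35495) were called lower in this fit, and 6599 of 37605 genes were against E17.5 LG. Values of 35.6% and 41.4% of the genes did not overlap. Rescaled, the adult values of Eya1 were 0.0597, 0.0629 and 0.167 FPKM, a mean of 0.0967 FPKM against 0.169 FPKM as deposited, and the highest day 7 value was 0.0492 FPKM. Differences this small on the log2(FPKM + 1) scale understate the ratio of low values. Eya1 did not pass the filter, so these values stand outside the main test.

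Runx1, the runt-domain factor known from haematopoiesis and also found in gland epithelia, lies at chr16:92601466-92826149 on the minus strand. Its values were 0.175, 0.40 and 0.277 FPKM in adult LG, 0.0435, 0.0526 and 0.0951 FPKM in E17.5 LG, and 0.0483, 0.0940 and 0.0323 FPKM in E19.5 LG. The adult libraries lay above the embryonic ones, on about 5, 15 and 25 reads. Read counts of Runx1 are approximate, since none of its values came out as whole reads to within 0.01 with the exon length used here. The day 7 sphere mean was 0.0062 of the passage 10 value, and an undercount of Runx1 in the 20 libraries was not tested. Without the filter, Runx1 was called lower in E17.5 LG (-0.27, adjusted p = 0.02038) and E19.5 LG (-0.28, adjusted p = 0.01881), as were 12.6% and 12.1% of all genes, while values of 39.2% and 38.2% did not overlap. After rescaling, the adult range of 0.0657 to 0.251 FPKM overlapped the E17.5 range of 0.0447 to 0.0981 FPKM. The passage 2 spheres held 0.0190 to 0.124 FPKM. The leukocyte markers were higher in adult LG as well, with a summed level of 12.8 to 15.8 FPKM against 5.55 to 5.87 FPKM in E17.5 LG and 7.02 to 8.04 FPKM in E19.5 LG, with 3 of 3 and 2 of 3 tested lower in the embryo. These calls were lost after rescaling and kept with voom. The part of leukocytes in the Runx1 values was not tested. In the annotation, 106 of the 12025 exon bases of Runx1 overlap the gene Gm26626 on the opposite strand, and the counting was not stated to use strand.

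**Figure D3:**
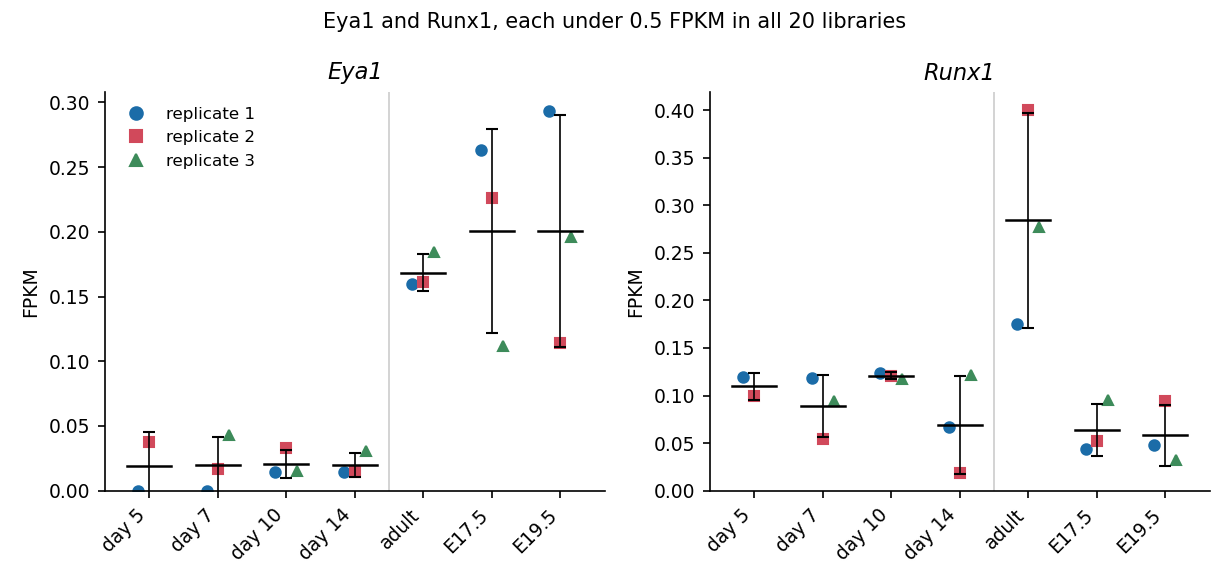
FPKM of Eya1 and Runx1 in each passage 2 LGSC and LG library, with group means and 1 SD as lines, cut at 0. The sphere libraries stayed at or under 0.0429 FPKM of Eya1, and the adult libraries held the 3 highest Runx1 values.

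Sox9 and Sox10, HMG-box factors of the SoxE group that mark the distal bud of many glands, are located at chr11:112782224-112787760 (plus strand) and chr15:79154908-79165240 (minus strand). Six2, a homeodomain partner of the Eya proteins known from nephron progenitors, is located at chr17:85684277-85688274 (minus strand). Foxc1, a forkhead factor of the anterior eye segment, is located at chr13:31806633-31812476 (plus strand). All 4 were listed at 0 in every passage 2 and tissue library. Since Gapdh and Krt8 were listed at 0 in the same tables, no fold change or test is given for them.

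Msx2, a homeodomain protein of skin, tooth and craniofacial mesenchyme, spans chr13:53466884-53473074 on the minus strand. The RefSeq window before its start, which lies within the gene as GENCODE annotates it, held the homeodomain core TAATTA 187 bases upstream, and 4.8% of all windows held it. This palindromic core, read on either strand, is in capitals below, and is shown because Barx2, Pax6, Six2 and Msx2 itself are homeodomain proteins.

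Msx2, chr13:53472950-53472979, minus strand: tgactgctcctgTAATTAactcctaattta

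In the spheres Msx2 followed the replicate number of the culture and not its day. Replicate 2 held 4.05, 4.80, 6.69 and 4.11 FPKM at days 5, 7, 10 and 14. Replicate 1 held 0.610, 0.264, 0.103 and 0.376 FPKM, and replicate 3 held 0.477, 1.38 and 0.551 FPKM at days 7, 10 and 14. Every replicate 2 value exceeded every other one. The share of all genes that separated the replicate 2 cultures in this way was not counted. The sphere values rested on 3 to 169 reads. In tissue Msx2 was at 0 in 5 of 9 libraries and reached 0.139 FPKM in the others, on at most 4 reads, so it was not tested there.

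Other genes, chosen after their values were seen, also set the replicate 2 cultures apart. Dlx5, a homeodomain relative of the Msx proteins, held 22.1 to 31.6 FPKM in replicate 2 and at most 2.08 FPKM in the others. Dlx3 held 2.15 to 8.79 FPKM against at most 1.02 FPKM. Hmx1, a homeodomain factor of craniofacial tissue, held 4.08 to 5.80 FPKM in replicate 2 and was listed at 0 in the other cultures. Elf5, an ETS factor of glandular epithelium, held 2.16 to 9.10 FPKM against at most 0.735 FPKM. Krt18, a keratin of simple epithelium, was in contrast at 130 to 176 FPKM in replicate 2 and 689 to 1734 FPKM elsewhere, and Cdh1 overlapped. Pax6 did not separate in this way, with 4.43 to 13.1 FPKM in replicate 2, 6.65 to 14.1 FPKM in replicate 1 and 5.84 to 13.3 FPKM in replicate 3. Barx2 overlapped as well, with 12.4 to 37.5, 4.85 to 19.0 and 7.21 to 45.6 FPKM. The replicate numbers also paired the sphere libraries over all genes, with a mean correlation of deviations of 0.457 for libraries sharing a number and -0.217 for others.

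During culture, no member passed. Day 7 and day 14 values of Pax6 were 8.72, 4.71 and 5.84 FPKM, and 6.65, 13.1 and 13.3 FPKM, which overlapped. The difference was 0.67 (SE 0.323, 95% interval -0.10 to 1.45, adjusted p = 0.5326). Barx2 gave 19.0, 18.6 and 7.21 FPKM at day 7 and 4.85, 20.0 and 45.6 FPKM at day 14, with a difference of 0.28 (95% interval -1.61 to 2.16, adjusted p = 0.9237). Leaving out day 14 replicate 3 turned it to -0.41 (adjusted p = 0.9261). For Msx2 the difference was 0.0042 (95% interval -1.80 to 1.81, adjusted p = 0.9982). No member separated between these days, while 17.4% of all genes did. These intervals are wide, more so for Barx2 and Msx2 than for Pax6. They came from a fit that ignored the pairing by replicate number. For Msx2 they therefore include the gap between replicate 2 and the other cultures. With the replicate number as a block, no member passed either. The size of change that could be detected was not tested.

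The percentage called at day 14 against day 7 was 0 over all 15744 genes tested by limma, with 1557 genes at an unadjusted p under 0.05. The voom form of limma on the recovered reads also called 0 genes, with 1194 under that unadjusted level, and 117 with the replicate number as a block. The slope over days 5, 7, 10 and 14 was 0.046 per day for Pax6 (SE 0.0443, adjusted p = 0.6121), 0.032 for Barx2 (SE 0.0756, adjusted p = 0.855) and -0.021 for Msx2 (SE 0.0886, adjusted p = 0.9279). Without the replicate 2 cultures the slopes were 0.037, 0.014 and -0.0002. Of all genes, 2.14% had a slope that passed (0.648% upward, 1.50% downward), 334 genes in all, or 783 with the replicate block, in which no member passed either.

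The other culture days gave values in the same range. Pax6 held 8.62 and 10.5 FPKM at day 5, and 14.1, 4.43 and 10.8 FPKM at day 10. Barx2 held 16.8 and 12.4 FPKM, and 15.3, 37.5 and 8.87 FPKM. In order of their means, the days ran for Pax6 from day 14 (11.02 ± 3.79 FPKM, n = 3) through day 10 (9.78 ± 4.91 FPKM, n = 3) and day 5 (9.57 ± 1.35 FPKM, n = 2) to day 7 (6.43 ± 2.07 FPKM, n = 3). Neighbours in that order differed by less than their spread, except day 5 and day 7, whose values (8.62 and 10.5 against 4.71 to 8.72 FPKM) still overlapped.

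Between spheres and tissue, Barx2 was the member called as deposited. Day 7 spheres (14.9 ± 6.71 FPKM, n = 3) lay below adult LG, with a log2 fold change of -2.75 (SE 0.507, adjusted p = 0.007792) and below E17.5 LG, with -4.02 (SE 0.353, adjusted p = 0.0002591). The adult mean was 7.19 times and the E17.5 mean 16 times the day 7 mean. No sphere library reached the lowest adult value of 55.6 FPKM, the highest being 45.6 FPKM. Rescaled, however, the adult range began at 20.9 FPKM, below the highest day 7 value of 22.5 FPKM, and the adult call was lost (-1.65, adjusted p = 0.09151). The adult call was kept in the other 12 of 13 alternatives, voom among them. The E17.5 call was kept under every alternative run, with differences of -4.24 to -3.60.

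Pax6 in day 7 spheres lay below every adult library as deposited. The difference of -0.74 (95% interval -1.34 to -0.14) missed the threshold after adjustment (adjusted p = 0.05974). It passed without day 7 replicate 1 (-0.95, adjusted p = 0.04415). After rescaling it turned to 0.25 (adjusted p = 0.6214). Against E17.5 LG the sphere values were all higher, and the difference of 0.55 (95% interval 0.04 to 1.06) also missed the threshold (adjusted p = 0.07332). It passed without day 7 replicate 2 (0.72, adjusted p = 0.02038) and with voom on the recovered reads (0.82, adjusted p = 0.03212).

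Msx2 values of day 7 spheres did not overlap those of adult or E17.5 LG, at 0.264 to 4.80 FPKM against at most 0.0800 FPKM. Of all genes, 52.4% did not overlap between day 7 spheres and adult LG and 59.6% between day 7 spheres and E17.5 LG. The differences of 1.11 and 1.10 did not pass (adjusted p = 0.1734 and 0.1608). They passed with voom and the replicate block (3.94, adjusted p = 0.02613, and 4.92, adjusted p = 0.006925), although replicate numbers did not pair spheres with tissue. In these fits Msx2 reached the minimum level for a test only through the spheres, chiefly through day 7 replicate 2 at 4.80 FPKM. With that library left out, Msx2 did not reach it. These Msx2 tests therefore rest on the group in which the gene was high.

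Thus 1 of 3 members tested, Barx2, was called lower in the spheres in each of these comparisons. Over all genes 35.2% were called against adult LG (14.2% higher, 21.1% lower) and 47.6% against E17.5 LG (18.1% higher, 29.6% lower). Markers of other cell types moved with both comparisons. Mesenchymal markers were lower in the spheres in 5 of 5 tested against adult LG and 6 of 6 against E17.5 LG, endothelial markers in 2 of 2 in each, and myoepithelial markers in 3 of 3 in each. Of 4 epithelial markers tested, Cdh1 and Krt14 were higher in both. Krt5 differed by 0.83 and 0.91 and Krt18 by -0.65 against adult LG and 1.08 against E17.5 LG, none of which passed. How these differences in makeup bear on the Barx2 values was not tested.

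**Figure D4:**
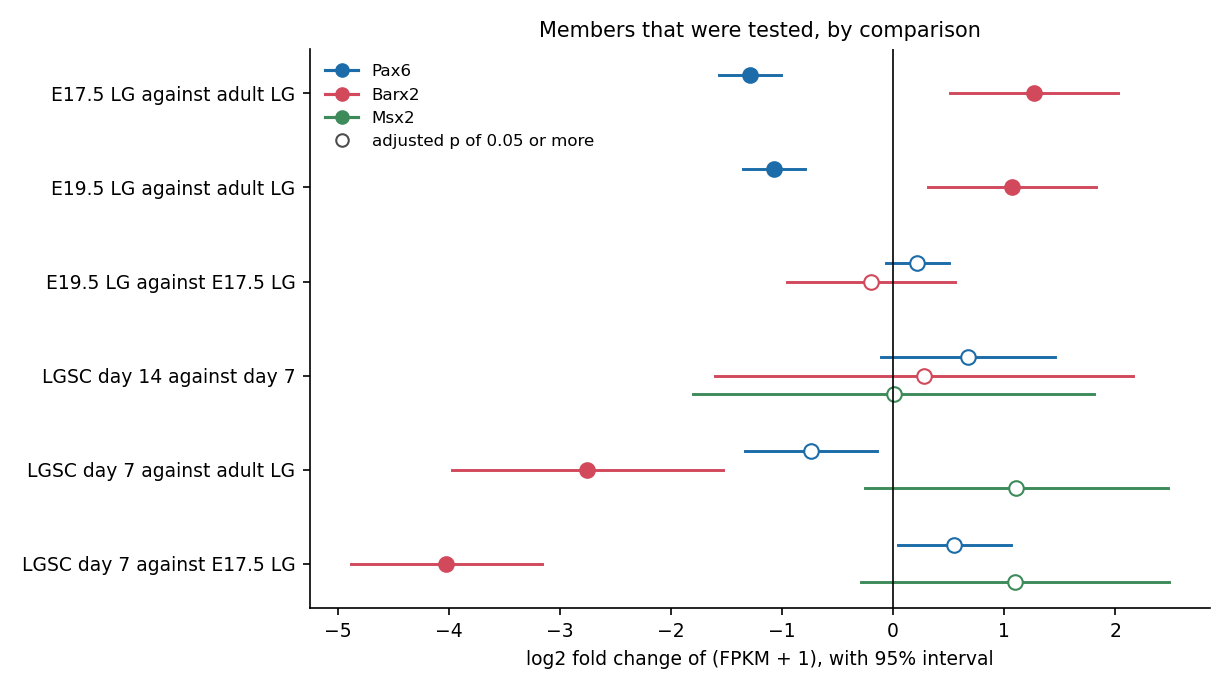
Log2 fold change of (FPKM + 1) with its 95% interval for Pax6, Barx2 and Msx2 in each comparison of groups. Filled points passed an adjusted p of 0.05. Barx2 passed in 4 comparisons and Pax6 in 2, while all intervals of the culture comparison crossed 0.

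Relatives and partners of the 9 genes were described from a list of 25. Of the 13 tested between E17.5 and adult LG, 8 were higher and 1 lower, with a median of 1.16 against 0.05 for all genes, and 4 did not pass. Of all genes, 29.1% were called higher and 24.9% lower. Sox11 (5.21) and Sox4 (2.71), SoxC factors of immature cells, Barx1 (3.41), the mesenchymal paralogue of Barx2, and Sox8 (2.32), the third SoxE factor, had the largest differences. Barx1 rose from 2.95 FPKM in adult LG to 40.0 FPKM at E17.5, so that both Barx genes were higher in the embryo. Cbfb, the partner of the Runx proteins, was higher by 1.5. Eya2, a paralogue of Eya1, was the member of the list that was lower (-1.23), with 84.6 FPKM in adult LG and 35.4 FPKM at E17.5, far above the trace of Eya1. Its call was kept with voom but lost after rescaling, in which 10 of 12 relatives tested were higher and none lower. For E19.5 LG the counts were again 8 higher and 1 lower, Eya2, of 13. Between E19.5 and E17.5 LG, Sox8 (-1.38) and Sox11 (-1.10) were lower and none was higher.

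In culture, none of 9 relatives tested was called between days 7 and 14, and only Cbfb had a slope that passed (-0.070 per day, adjusted p = 0.04738), a call that was lost after rescaling and with voom. Day 7 spheres exceeded adult LG in Sox4 (4.0), Sox11 (1.56) and Cbfb (1.54) and were lower in Barx1 (-1.88), of 10 tested. Sox4 was at 140 ± 24.8 FPKM in day 7 spheres and 13.4 ± 16.8 FPKM in adult LG (SD, n = 3 each). Against E17.5 LG, 2 of 12 were higher (Sox4 and Eya2) and 5 lower. Over all genes, 35.2% were called against adult LG and 47.6% against E17.5 LG. Barx1 was at 0.0266 FPKM in day 7 spheres against 40.0 FPKM at E17.5, and Sox8 was listed at 0 in them. Sox2, Six5 and Foxc2 were listed at 0 in all 20 libraries.

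Other regulators of the eyelid, ocular surface and gland buds formed a second list of 25. Of 12 tested, 6 were higher and 2 lower in E17.5 LG than in adult LG, with a median of 1.56, while 54.0% of all genes were called. Twist1 (4.21), Alx4 (4.07) and Osr1 (3.01), all known from mesenchyme, were the largest increases, and Lmx1b (-2.78) the largest decrease. In E19.5 LG, 7 were higher and 3 lower, while 54.2% of all genes were called. After rescaling, 7 were higher and 1 lower at each age. The call of Elf5 was lost at both ages, and those of Meis1 and Hmx1 at E19.5. With voom only the call of Klf5 at E19.5 was lost. None was called between the embryonic ages or in culture. Day 7 spheres were higher in Klf5 (3.22), a factor of epithelial progenitors, and lower in 6, led by Elf5 (-4.84) and Twist1 (-3.34), of 12 tested against adult LG. After rescaling these counts were 2 higher and 3 lower, with the calls of Alx4, Foxl2 and Osr1 lost, whereas voom kept all the calls. Against E17.5 LG, 2 were higher and 6 lower of 12 tested. Over all genes, 35.2% were called against adult LG and 47.6% against E17.5 LG.

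FGF10 signalling, represented by 20 genes, was higher in the embryonic gland in 9 of 11 genes tested at E17.5 and lower in 1, Etv1, with a median of 1.83. At E19.5 it was 8 higher and 1 lower. Over all genes, 54.0% were called at E17.5 and 54.2% at E19.5. After rescaling, 9 of 10 were higher at each age, and Etv1 no longer reached the minimum level for a test. Etv5 (4.53), a nuclear effector of the pathway, Fgf10 (3.92), and its feedback inhibitors Spry4 (2.42) and Dusp6 (2.23) led at E17.5. Fgf10 itself rose from 4.0 ± 3.33 to 67.8 ± 24.0 FPKM (SD, n = 3 each). None was called between the embryonic ages or in culture. In day 7 spheres, 5 were higher and 4 lower than in adult LG, of 12 tested, and after rescaling 6 of 11 were higher and none lower, with the calls of Fgf10, Fgf7 and Spry4 lost and Etv1 no longer tested. Etv5 was higher (2.64) and Spry4 lower (-1.95). Fgf10 was listed at 0 in all 3 day 7 libraries, while the medium supplied the protein. Against E17.5 LG, 2 were higher and 7 lower of 11 tested. Over all genes, 35.2% were called against adult LG and 47.6% against E17.5 LG. Of the genes of these 3 lists that were called and could still be tested, none changed direction after rescaling or with voom.

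The genes whose levels ran most like a member over the 20 libraries were taken from 10027 protein-coding genes. For Pax6 they were Insig2 (Pearson r = 0.935), Pts (0.899) and Crebrf (0.890). For Barx2 they were 1190002N15Rik (0.957), Tgfbr3 (0.955) and Egr1 (0.952), all of which were highest in embryonic LG. For Msx2 they were Sdr16c6 (0.993), Spink5 (0.972) and Trex2 (0.971). These are descriptions over libraries that share groups, cultures and scaling, and the Msx2 values rest on the replicate 2 cultures.

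The passage 10 library was compared by value, since it was 1 library, sequenced more deeply and made against another gene list. That list held 111 assembled loci, against 11226 for the other libraries. Pax6 was at 5.29 FPKM, within the passage 2 range of 4.43 to 14.1 FPKM. Barx2 was at 14.0 FPKM, within 4.85 to 45.6 FPKM and close to the day 7 mean of 14.9 FPKM. Msx2 was at 0.936 FPKM, within its range, and Eya1 at 0.0108 FPKM, from 2 reads. Those 4 values therefore lay within the passage 2 ranges. Over genes with at least 1 FPKM in passage 10, the median ratio of the day 7 mean to the passage 10 value was 0.28. At 10 FPKM or more it was 0.0928. Whether the 4 genes kept their levels over passages was not tested.

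The other 5 lay above every passage 2 library, and the share of all genes that did so was not counted. Sox9 was at 51.8 FPKM (5093 reads), Foxc1 at 20.3 FPKM (2822 reads), Runx1 at 14.3 FPKM (about 4104 reads) and Six2 at 10.8 FPKM (545 reads). Sox10 gave 1 read. Sox9 stood at the 91.6th percentile of the protein-coding genes expressed in that library, above Barx2 at the 64.3rd. Their difference from passage 2 was shared by many genes. Of 12547 genes with at least 1 FPKM in passage 10, 40.4% had a day 7 mean under 0.1 of the passage 10 value, and 8.75% were listed at 0 in all 20 other libraries. At 10 FPKM or more the shares were 50.5% and 10.8% of 5332 genes. Epcam (261 FPKM), Krt8 (414 FPKM), Mki67 (19.51 FPKM) and Gapdh (3.001 FPKM) belonged to the genes listed at 0 elsewhere. Gapdh was thus low in passage 10 too, where Actb was at 478.8 FPKM. Whether genes were also undercounted in the passage 10 library, which would bear on its values and percentiles, was not tested. Of the relatives, Foxc2 was at 8.64 FPKM and Runx2 at 8.08 FPKM. The passage number and the gene list cannot be told apart here.

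**Figure D5:**
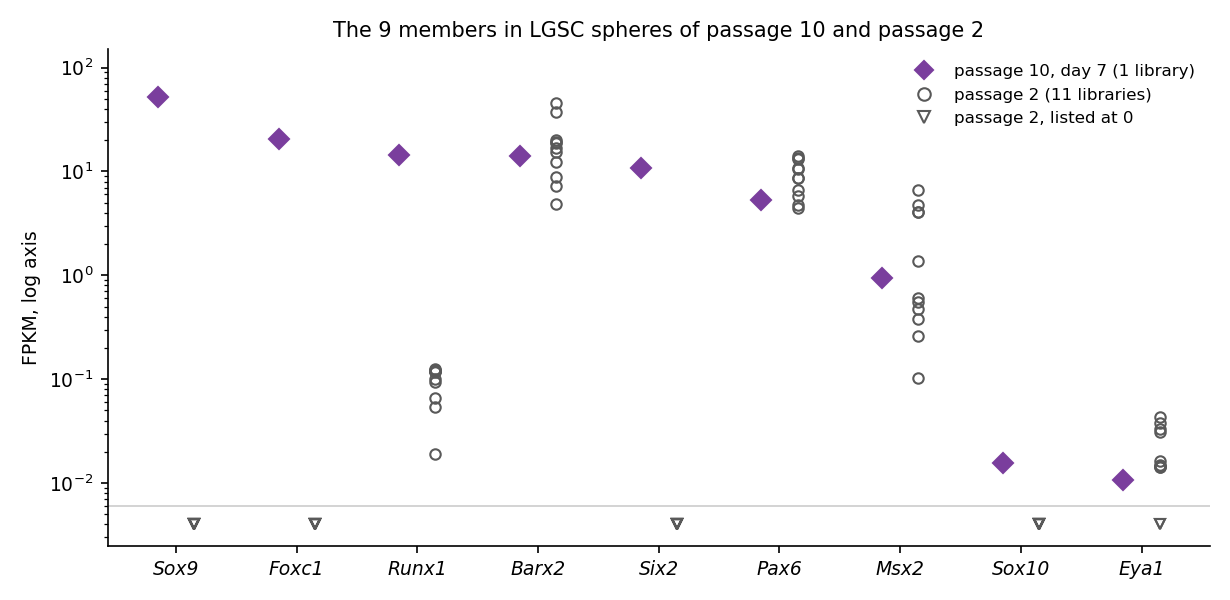
FPKM (log axis) of the 9 genes in the passage 10 LGSC library (diamonds) and the 11 passage 2 LGSC libraries (circles), with values listed at 0 as triangles under the grey line. Sox9, Foxc1, Six2 and Runx1 lay above all passage 2 libraries at 10.8 to 51.8 FPKM, while Pax6, Barx2 and Msx2 lay within the passage 2 range.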

How the data were processed

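Poly-A RNA of LGs and LGSC spheres was sequenced. Per the study's methods, libraries were made with the NEBNext Ultra kit and sequenced as paired-end reads. The submitters' processing notes name CASAVA 1.8, HISAT2 2.0.5, featureCounts 1.5.0-p3 and the build NCBIM37. The authors deposited 1 table of FPKM per library. The unit was read from the values, since the step from counts to FPKM is not given in the sources used here. A day 5 library and the passage 6 and passage 20 libraries were not analysed here.

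Symbols and positions came from GENCODE M21 (GRCm38), which held 52489 of the 52636 Ensembl identifiers and none of the 11226 assembled loci. No coordinate was converted between builds. Reads were recovered from FPKM, exon length and library scale, and 92.6% to 93.6% of genes with up to 1000 reads came out whole to within 0.01. Intervals cover the spread between libraries.

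Groups came from the sample labels. Each fit took the genes whose mean over its libraries reached 0.5 FPKM, and used limma 3.58.1 (R 4.3.3, lmFit and eBayes with trend) on log2(FPKM + 1), with Benjamini-Hochberg adjustment over all genes and a threshold of 0.05. The 3 tissue groups shared 1 fit. The scripts were tested on simulated data with known changes. Alternatives were a pseudocount of 0.1, no filter, scaling to recovered reads, voom with TMM on recovered reads, the replicate number as a block, all 20 libraries in 1 fit, days 7, 10 and 14 only, and leaving out each library. Voom with the block, and the fits without the replicate 2 cultures, were chosen after seeing the data. The same replicate number correlated by 0.255 to 0.600 between days 7 and 14 and by 0.260 to 0.719 over the 4 days, and by -0.0775 to 0.0663 in tissue, so numbers paired the sphere libraries only.

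All 9 members are named. Of each list, the counts and up to 4 called genes with the largest difference are named, and for each member with a mean of at least 0.5 FPKM the 3 genes with the highest Pearson r. Genes named for the replicate 2 cultures, for the passage 10 library or in further examples were chosen after their values were seen. The members and lists were chosen with earlier results of these data known. Promoter windows came from RefSeq, which matched Pax6, Six2, Foxc1, Runx1 and Msx2.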

Additional observations from a re-analysis of the deposited data

Results flagged for a closer look

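In the passage 10 LGSC library, which entered no test, 5 members lay above every passage 2 LGSC library, of which Sox10 did so by 1 read (0.0155 FPKM). The share of all genes that lay above every passage 2 library was not counted. Among genes with at least 1 FPKM in passage 10, 40.4% had a day 7 mean under 0.1 of the passage 10 value. Sox9 was at 51.8 FPKM, Foxc1 at 20.3 FPKM and Six2 at 10.8 FPKM, while all 3 were listed at 0 in passage 2. Runx1 was at 14.3 FPKM, against 0.0190 to 0.124 FPKM in passage 2. No group held 4 libraries or more, so no test for a library far from its group was made.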

How the results depend on the processing

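The Pax6 calls in tissue were lost with scaling to recovered reads, which lowered adult LG 1 and 2. At each age they were kept in the other 15 of 16 alternatives, voom among them. Pax6 in tissue and the Barx2 calls kept their direction under every alternative run. The Barx2 call was lost in 1 of 16 alternatives for E17.5 LG and in 3 of 16 for E19.5 LG. For day 7 against adult LG it was lost in 1 of 13, and against E17.5 LG in none. Members called fell from 2 to 1 for E17.5 and for E19.5 against adult LG with scaling to recovered reads and with all 20 libraries in 1 fit, and leaving out single libraries gave 1 to 2 for E19.5. For day 7 against adult LG they went from 1 to 0 with the scaling and to 2 with voom and the replicate block, with 1 to 2 on leaving out single libraries. For day 7 against E17.5 LG they went to 2 with voom and with voom and the block, with 1 to 2 on leaving out single libraries. Pax6 in day 7 against adult LG turned to 0.25 with the scaling. In culture, where nothing passed, leaving out single libraries moved day 14 against day 7 between -0.60 and 0.70 for Msx2 and between -0.41 and 1.08 for Barx2, and the slope between -0.082 and 0.024 for Msx2 and between -0.038 and 0.12 for Barx2. The Msx2 slope was 0.014 with voom and the block. The replicate block alone changed no call of a member.

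Counts over all genes moved more. Between E19.5 and E17.5 LG, 323 genes were called, and 162 with the pseudocount of 0.1, 186 with the scaling, 100 with the replicate block, 511 with all 20 libraries, 158 with voom and the block, and 50 to 1736 on leaving out single libraries. Day 14 against day 7 gave 50 with all 20 libraries and 117 with voom and the block. The slope gave 82 with no filter, 783 with the block, 616 with all 20 libraries, 1089 with voom and the block, 0 with days 7, 10 and 14 only, and 11 to 384 on leaving out single libraries. Day 7 against adult LG gave 6238, and 3770 to 8135 on leaving out single libraries. The cause was not tested. Eya1, Runx1 and tissue Msx2 rested on few reads, and 3 reads were worth 0.0259 to 0.379 FPKM. For Runx1 the day 7 mean was 0.0062 of the passage 10 value, and an undercount in the 20 libraries was not tested.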

Other observations

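Markers of the other cell types were tested in the same fits. Among 6 Schwann cell and nerve genes, S100b stood at 39.0 FPKM in E17.5 LG, 25.9 FPKM in E19.5 LG and 0.118 FPKM in adult LG (log2 fold changes of 5.15 and 4.6), and 2 of 5 tested were higher and 1, Mbp, lower at E17.5, with 3 and 1 at E19.5. Mbp turned after rescaling. The melanocyte genes Dct and Pmel, the 2 tested of 4, were higher at both embryonic stages. Dct, an enzyme of melanin synthesis, stood at 2.81 FPKM in E17.5 LG and 0.0773 FPKM in adult LG. Of the skeletal muscle genes tested, 1 of 3, Tnnt3, was higher at E17.5 (5.58 against 0.464 FPKM) and none of 3 passed at E19.5. Cryab, the crystallin tested from the lens, retina and cornea list, was lower in the embryo (-1.74 and -1.53) and in day 7 spheres (-1.63) than in adult LG. The mesenchymal and pigment cell genes tested were thus higher in the comparison of embryonic and adult LG in which Barx2 was higher, while the nerve genes did not move as one, and the part of these cells in it was not tested.

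In day 7 spheres, nerve genes gave 1 higher and 2 lower of 4 tested against adult LG, both of the lower calls being lost after rescaling and that of Ngfr with voom, and 1 higher and 3 lower of 5 against E17.5 LG. Melanocyte genes gave no call of 1 tested and 2 lower of 2, and skeletal muscle genes were tested against E17.5 LG only, with 2 lower of 3. Leukocyte genes were lower in 3 of 3 against adult LG and 2 of 3 against E17.5 LG. Against adult LG, the call of Cd79a was lost after rescaling and kept with voom. Calls over all genes were 14.2% higher and 21.1% lower against adult LG, and 18.1% higher and 29.6% lower against E17.5 LG. Of the acinar genes only Ltf, the tear protein lactotransferrin, could be tested. It was lower in E17.5 and E19.5 LG than in adult LG (-1.66 and -1.64), calls that were lost after rescaling (-1.26 and -1.24) and kept with voom. It was listed at 0 in every E17.5 library and was at most 0.0369 FPKM at E19.5. It rose over culture days by 0.19 per day (limma, adjusted p = 0.009059), from 0 FPKM at day 5 to 2.22 FPKM at day 14. None of the 3 members tested in culture passed over the same days. The passage 10 library, sampled at day 7 and made against another gene list, held 407 FPKM of Ltf and was not part of this slope. In passage 2 day 7 spheres the summed acinar level was at most 0.13 FPKM.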
